A study of Mus musculus with 6 samples.

Results

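The junction genes described here are 10 genes that hold mammary epithelial cells together: the claudins Cldn1, Cldn3, Cldn4, Cldn7 and Cldn8, occludin (Ocln), junctional adhesion molecule A (F11r), the scaffold protein ZO-1 (Tjp1), E-cadherin (Cdh1) and the epithelial cell adhesion molecule Epcam. They were taken by gene symbol, as a group of known contact proteins, with earlier results of these data known, and all 10 had a row among the 19739 genes of the deposited table. All 10 also passed the filter on low values, as did 16394 genes in all. RNA was sequenced from 6 libraries of wild-type mouse primary mammary epithelial cells, sorted as luminal cells by flow cytometry and cultured. Per the labels' protocols the medium, DMEM/F12, held 5% FBS, 1% P/S and L-Ala-Gln at 1%. It also held heparin (4 µg/ml), the growth factors FGF2 (20 ng/ml) and EGF (10 ng/ml), and 5 µM of Y-27632, which inhibits the kinase ROCK. The protocol then gives 12 hours without serum. The 3 EFNA3 libraries came from cells next kept for 24 hours, still without serum, with EFNA3 protein at 1 µg/ml, and the 3 control libraries from cells labelled 0 µg/ml. The labels give no strain, age or sex of the animals, and do not say whether replicates came from separate animals or cultures. The p-values therefore measure only the spread between these libraries, which may be technical.

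Tight junctions seal the space between epithelial cells near their upper edge. Claudins form the sealing strands, occludin and JAM-A sit in the membrane beside them, and ZO-1 ties the membrane proteins to actin. Adherens junctions lie just below, where E-cadherin on neighbouring cells binds itself and holds catenins on its inner side, while Epcam is an epithelial membrane protein that also contacts claudins, Cldn7 above all. In the mammary gland these contacts close the duct and keep milk in its lumen. EFNA3 is ephrin-A3, a ligand of Eph receptors, a receptor family that acts at contacts between cells, and the comparison asks whether adding the protein to luminal cells alters their gene expression.

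All 10 junction genes had control means above 8.10 (log2), the median of all 19739 genes of the table. Cldn8, the lowest, lay at or above 49% of the 16394 tested genes. Cldn3, Cldn4 and Cldn7 had group means 0.20 to 0.25 higher with EFNA3 on the log2 scale, Epcam 0.17 higher and Tjp1 0.32 lower, whereas Ocln and Cdh1 lay within 0.04 of no difference. None of these passed the test. The fit was a limma moderated test over all 16394 genes with Benjamini-Hochberg adjustment. It called 0 of 10 junction genes and 0% of all genes, and the junction genes' adjusted p-values ran from 0.55 to 0.991. At an unadjusted p under 0.05 stood 0 of the 10, against 6.73% of all tested genes (1104). The groups did not overlap for 2 junction genes, Epcam and Cldn1, both higher with EFNA3, beside 8.53% of all tested genes with no overlap in that direction, 7.45% in the other and 16% in either. A total of 7 junction genes had the higher mean with EFNA3, as did 50.8% of all tested genes. With 3 libraries against 3, an exact permutation test of a single gene cannot go below 0.1.

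The values are the authors' log2 expression values, brought to a common distribution with a median of 8.10 in every library, so depth is unknown and a common rise or fall of every gene would not show. Luminal keratins were present, with Krt8 at 13.70 ± 0.06, Krt19 at 13.75 ± 0.07 and Krt7 at 12.33 ± 0.01 in controls (SD, n = 3). Krt19 and Krt7 had no overlap between groups and differences of 0.21 (SE 0.09) and 0.22 (SE 0.09), each with adjusted p = 0.55, and of 0.13 each without EFNA3 replicate 1. Krt8 differed by 0.12 (SE 0.08). Of the 12 luminal markers, 7 had higher and 5 lower means with EFNA3, with a median difference of 0.03. Prlr was lower with no overlap, at -0.31 (SE 0.12, adjusted p = 0.55), and at -0.16 without EFNA3 replicate 1. Also present were the basal keratins Krt5 and Krt14, at 14.91 ± 0.02 and 16.26 ± 0.08 in controls (SD, n = 3). Among basal contractile genes and the oxytocin receptor, control means were 13.44 for Oxtr, 9.38 for Mylk, 7.77 for Acta2 and 5.198 for Tagln. Mylk was the one of these 4 with no overlap between groups, at a difference of -0.45 (SE 0.19, adjusted p = 0.55), and -0.21 without EFNA3 replicate 1. The basal keratin Krt17 was higher with no overlap, at 0.23 (SE 0.11, adjusted p = 0.55), and at 0.10 without that library. Of 8 basal markers tested, 4 had higher and 4 lower means. Myh11 and Cnn1 did not pass the filter, at 2.65 ± 0.87 and 2.68 ± 0.36 in controls and at 1.22 ± 0.43 and 1.40 ± 1.26 with EFNA3 (SD, n = 3). On a log2 scale, the summed level of 12 luminal markers ran from 16.18 to 16.25 in controls and from 16.23 to 16.37 with EFNA3, and that of 10 basal markers from 16.91 to 17.00 and from 17.00 to 17.06. The sum of 7 fibroblast markers ran from 10.97 to 11.03 in controls and from 10.84 to 10.99 with EFNA3, that of 4 endothelial markers from 8.37 to 8.54 and from 8.40 to 8.48, and that of 4 immune markers from 7.35 to 7.74 and from 7.43 to 7.90. Of the 7 fibroblast markers, 5 had higher and 2 lower means with EFNA3, and 0 passed the test. Their median difference was 0.29, and 0.27 without EFNA3 replicate 1. Pdgfra, the most abundant of them, was lower with no overlap, at -0.22 (SE 0.10), and at -0.12 without that library. Fbln1, the next most abundant, was also lower with no overlap, at -0.31 (SE 0.10), and at -0.32 without that library. Among the higher ones, Col1a2, Col3a1 and Pdgfrb had low control means of 5.03, 4.27 and 4.61, and the SE of their differences was 0.38, 0.42 and 0.35. The part of other cells in the results was not tested. In bulk RNA, fewer cells of a type and less RNA per cell cannot be told apart.

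In EFNA3 replicate 1, values depended on transcript length more than elsewhere. When tested genes were divided into eighths by length, its median deviation from the mean of 6 libraries was 0.31 (log2) in the eighth with transcripts of at most 1060 nt. It was -0.32 in the eighth with transcripts of at least 5951 nt. The medians of the other 5 libraries in these eighths lay between -0.13 and 0.12. Length here is that of the longest annotated transcript, which may not be the one expressed. Because the junction genes span 1259 nt (Cldn3) to 7049 nt (Tjp1), each junction gene's difference below is also given without that library.

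Levels of different genes were compared after dividing by transcript length, that is, on the log2 scale, per kilobase. In controls Epcam led at 13.54, followed by Cdh1 at 12.23. Cldn3 at 11.27, Cldn7 at 11.22, F11r at 11.02 and Cldn4 at 10.86 formed a middle group. Tjp1 at 9.66, Cldn1 at 8.83, Ocln at 8.43 and Cldn8 at 7.72 were the lowest. Cldn3 and Cldn7, with a gap of 0.05 on the log2 scale, were the only neighbours in this order whose control values overlapped. Within each of the 3 control libraries Cldn3 was the higher. The gap between Epcam and Cdh1 was 1.31, and that between Cldn4 and Tjp1 was 1.201. Before division by length the order was Epcam, Cdh1, Tjp1, F11r, Cldn4, Cldn7, Cldn3, Cldn1, Ocln and Cldn8, and there Cldn4 overlapped with Cldn7 and Cldn7 with Cldn3. Tjp1 went from rank 3 as deposited to rank 7 per kilobase, and Cldn3 from rank 7 to rank 3. Per kilobase of coding sequence Epcam and Cdh1 still led, F11r was at rank 3 and Cldn3 at rank 6, and Cldn8 was again last. As deposited, Epcam lay at or above 99.7% of all tested genes in controls and Cdh1 at or above 99.6%. Cldn8 lay at or above 49%.

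**Figure D1:**
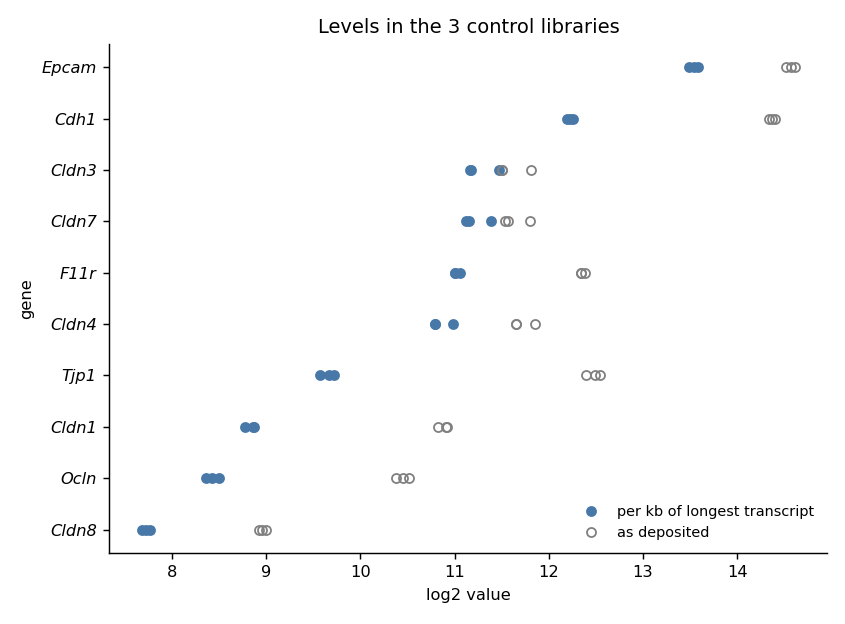
Levels of the 10 junction genes in the 3 control libraries, on a log2 scale, as deposited (open circles) and per kilobase of the longest transcript (filled circles), 1 point per library. Genes are ordered by level per kilobase, from Epcam at a mean of 13.54 down to Cldn8 at 7.72.

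Promoter sequences are shown for Cldn3 and Cldn4, which are neighbouring genes and varied together across libraries, for Epcam, whose groups did not overlap, and for Tjp1, which had the difference of the opposite sign. They are the 250 bases before the annotated start, from RefSeq on GRCm38.p6, read 5′ to 3′ on the strand of the gene. The authors' build was mm39, so these coordinates are not those of the authors' alignment. Capitals mark the E-box letters CAGGTG on either strand (CACCTG on the other), the core bound by repressors of the Snail and Zeb families, which are known to repress E-cadherin. Cldn4 lies on chromosome 5, minus strand, at chr5:134946935-134947184. Cldn3 lies on the same chromosome, plus strand, at chr5:134985964-134986213, with 0 annotated genes between the pair. Cldn7, which also varied together with both, lies on chromosome 11. Epcam lies on the plus strand at chr17:87635729-87635978, and Tjp1 on the minus strand at chr7:65371245-65371494.
Cldn4: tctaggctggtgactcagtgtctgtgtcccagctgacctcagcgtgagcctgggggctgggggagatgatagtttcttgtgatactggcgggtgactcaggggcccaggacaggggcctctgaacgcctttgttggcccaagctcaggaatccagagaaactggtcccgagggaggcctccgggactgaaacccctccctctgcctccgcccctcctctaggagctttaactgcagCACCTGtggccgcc
Cldn3: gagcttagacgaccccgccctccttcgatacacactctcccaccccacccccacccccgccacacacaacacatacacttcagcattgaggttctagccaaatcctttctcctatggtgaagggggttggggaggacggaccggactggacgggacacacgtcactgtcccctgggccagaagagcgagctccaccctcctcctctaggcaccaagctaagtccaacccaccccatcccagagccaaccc
Epcam: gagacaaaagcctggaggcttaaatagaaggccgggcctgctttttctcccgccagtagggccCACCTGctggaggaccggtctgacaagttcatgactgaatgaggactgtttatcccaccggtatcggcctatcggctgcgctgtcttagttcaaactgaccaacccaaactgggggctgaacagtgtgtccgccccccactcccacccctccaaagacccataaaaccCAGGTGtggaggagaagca
Tjp1: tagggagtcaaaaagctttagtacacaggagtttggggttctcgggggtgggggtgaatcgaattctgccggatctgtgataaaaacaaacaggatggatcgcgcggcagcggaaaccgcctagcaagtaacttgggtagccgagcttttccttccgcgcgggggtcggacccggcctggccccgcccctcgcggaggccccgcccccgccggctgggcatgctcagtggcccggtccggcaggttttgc

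The Cldn4 window held 1 E-box, whose first base lay at -14 relative to the start, and the Epcam window held 2, at -187 and -19. The Cldn3 and Tjp1 windows held none. RefSeq gave 10 promoters for 8 of the junction genes, those other than Cdh1 and Cldn8. An E-box was in 5 of these 10 windows (F11r, Cldn4, Epcam and 1 each of the 2 windows of Cldn7 and Ocln), and in 17.2% of all 32851 promoter windows of the same length. The grainyhead letters AACCGGTT, which read the same on both strands, were in none of the 10 and in 0.116% of all windows, and the looser AACNNGTT was in none and in 3.64%. GC-box letters, GGGCGG on either strand, were in 9 of the 10 and in 32.7% of all windows, and overlapped no E-box. A match describes the letters only, and none of these shares was tested.

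Among the claudins, Cldn3, Cldn4 and Cldn7 followed the same course through the 6 libraries. Cldn7, the claudin that binds Epcam, stood at 11.57, 11.53 and 11.80 in control replicates 1, 2 and 3 and at 12.19, 11.87 and 11.59 in EFNA3 replicates 1, 2 and 3 (log2). EFNA3 replicate 1 was the highest of the 6, and EFNA3 replicate 3 lay below control replicate 3, so the groups overlapped. Its mean went from 11.64 ± 0.15 to 11.88 ± 0.30 (SD, n = 3), a difference of 0.25 (SE 0.14, 95% interval -0.07 to 0.57, adjusted p = 0.55), or 1.19-fold. Leaving out EFNA3 replicate 1 gave 0.09 (SE 0.09).

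Cldn4, a barrier-forming claudin and also a receptor for Clostridium perfringens enterotoxin, had control values of 11.65, 11.65 and 11.85 and EFNA3 values of 12.14, 11.91 and 11.75 (log2, replicates 1 to 3). Again EFNA3 replicate 1 was highest, and EFNA3 replicate 3 fell within the control range. The mean difference was 0.22 (SE 0.11, 95% interval -0.02 to 0.46, adjusted p = 0.55) and it was 0.12 (SE 0.07) without EFNA3 replicate 1. Cldn3, a close relative of Cldn4 and a receptor for the same toxin, had control values of 11.50, 11.50 and 11.81 and EFNA3 values of 12.07, 11.80 and 11.54. Only EFNA3 replicate 1 lay above all controls. Its difference was 0.20 (SE 0.14, 95% interval -0.11 to 0.51, adjusted p = 0.564), and 0.07 (SE 0.10) without that library.

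The spacing of these 3 claudins within a library was tighter than their spread between libraries. Cldn3 minus Cldn7 stayed between -0.12 and 0.00 across the 6 libraries (log2), a range of 0.13, while each gene alone ranged over 0.57 and 0.66. Cldn3 minus Cldn4 ranged over 0.17 and Cldn4 minus Cldn7 over 0.21, while Cldn4 alone ranged over 0.49. The mean deviation of the trio from its 6-library mean was -0.19, -0.20 and 0.06 in the controls and 0.37, 0.10 and -0.13 with EFNA3. Control replicate 3 thus stood with EFNA3 replicate 2, and EFNA3 replicate 3 with the other controls. The trio was put together after its values were seen, so no test is given.

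Cldn1, a claudin needed for the skin barrier, behaved differently from the trio and varied little. It stood at 10.91, 10.92 and 10.83 in controls and at 10.93, 10.94 and 10.95 with EFNA3 (log2). All 3 EFNA3 values lay above all controls, by as little as 0.01 between control replicate 2 and EFNA3 replicate 1. The mean difference was 0.06 (SE 0.07, 95% interval -0.09 to 0.21, adjusted p = 0.715), and 0.06 without EFNA3 replicate 1. Cldn8, a claudin best known from the kidney collecting duct, was the lowest of the 10, at 8.956, 8.918 and 8.999 in controls and 8.953, 9.128 and 8.997 with EFNA3 (log2). Its highest value was in EFNA3 replicate 2 and the groups overlapped. The difference was 0.07 (SE 0.09, 95% interval -0.13 to 0.27, adjusted p = 0.749), and 0.10 without EFNA3 replicate 1.

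Of the other membrane proteins of the tight junction, Ocln showed no separation at all. Occludin, a MARVEL-domain protein that regulates the junction's permeability, stood at 10.51, 10.38 and 10.45 in controls and at 10.50, 10.38 and 10.45 with EFNA3 (log2). The difference was -0.003 (SE 0.07, 95% interval -0.17 to 0.17, adjusted p = 0.991), and -0.03 without EFNA3 replicate 1. F11r, the immunoglobulin-like adhesion protein JAM-A, stood at 12.34, 12.34 and 12.39 in controls and at 12.60, 12.45 and 12.36 with EFNA3. The values of EFNA3 replicates 1 and 2 lay above all controls, and that of replicate 3 did not. Its difference was 0.11 (SE 0.08, 95% interval -0.06 to 0.29, adjusted p = 0.561), and 0.05 without EFNA3 replicate 1.

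The scaffold gene Tjp1 had the largest difference of the 10 by size and the only one below -0.04. It stood at 12.54, 12.49 and 12.39 in controls and at 11.74, 12.30 and 12.43 with EFNA3 (log2). EFNA3 replicate 1 was 0.56 below the next lowest library, whereas EFNA3 replicate 3 lay above control replicate 3. The mean went from 12.47 ± 0.08 to 12.16 ± 0.37 (SD, n = 3), a difference of -0.32 (SE 0.16, 95% interval -0.67 to 0.04, adjusted p = 0.55), or 0.80-fold. Without EFNA3 replicate 1 it was -0.11 (SE 0.06). By group means as deposited, F11r and Tjp1 swapped places in the order of levels, with Tjp1 at rank 3 in controls and at rank 4 with EFNA3. The swap did not hold in every library. In EFNA3 replicate 3 Tjp1 was above F11r, at 12.43 against 12.36, and in control replicate 3 both stood at 12.39.

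E-cadherin and Epcam were the most abundant of the 10. Cdh1 stood at 14.37, 14.34 and 14.41 in controls and at 14.27, 14.41 and 14.35 with EFNA3 (log2), all within 0.14. The groups overlapped, and the difference was -0.03 (SE 0.07, 95% interval -0.19 to 0.13, adjusted p = 0.864). Leaving out EFNA3 replicate 1 gave 0.01. Epcam stood at 14.61, 14.52 and 14.57 in controls and at 14.90, 14.67 and 14.65 with EFNA3. All EFNA3 values were above all controls, by 0.04 at the closest and with replicate 1 highest. The mean went from 14.57 ± 0.05 to 14.74 ± 0.14 (SD, n = 3), a difference of 0.17 (SE 0.09, 95% interval -0.03 to 0.37, adjusted p = 0.55), or 1.13-fold, and 0.09 (SE 0.05) without EFNA3 replicate 1. Epcam minus Cdh1 was 0.24, 0.18 and 0.17 in controls and 0.63, 0.26 and 0.30 with EFNA3, so the distance between them was wider in each EFNA3 library than in any control. No test is given for this pair. The genes also differ in transcript length: the median difference of all tested genes was 0.08 in the eighth of lengths with Epcam and -0.02 in that with Cdh1.

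**Figure D2:**
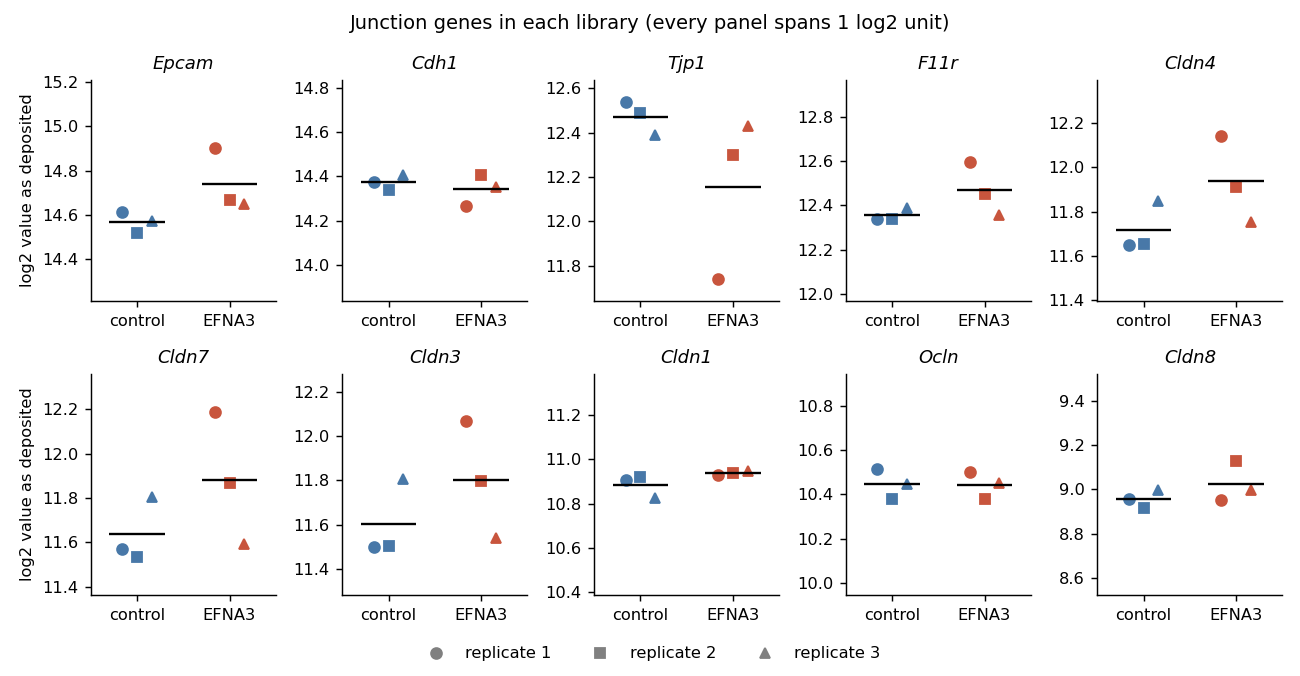
Deposited log2 values of the 10 junction genes in each library, ordered by control level, with 1 symbol per replicate and a bar at the group mean; every panel spans 1 log2 unit. The groups separate only for Epcam and Cldn1, and EFNA3 replicate 1 (circle) is highest for Cldn3, Cldn4, Cldn7, F11r and Epcam and lowest for Tjp1 and Cdh1.

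Together the 10 genes averaged 0.07 higher with EFNA3 on the log2 scale, with a median of 0.09 against 0.004 over all tested genes. The mean deviation per library was -0.04, -0.08 and 0.01 in control replicates 1, 2 and 3 and 0.09, 0.05 and -0.03 in the EFNA3 replicates, so EFNA3 replicate 3 lay below control replicate 3. EFNA3 replicate 1 held the highest value of 5 junction genes and the lowest of 2. Control replicate 2 held the lowest value of 5. Without EFNA3 replicate 1 the mean difference was 0.045, and without EFNA3 replicate 3 it was 0.11. The 5 claudins, grouped by family, averaged 0.16 higher, and all 5 had the higher mean with EFNA3, with an average of 0.09 when EFNA3 replicate 1 was left out.

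**Figure D3:**
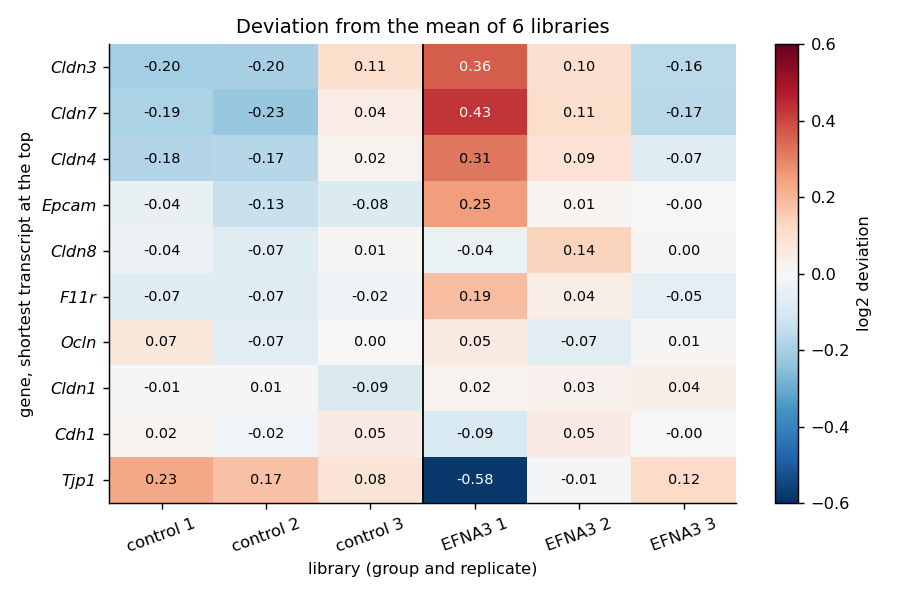
Deviation of each junction gene from its mean over 6 libraries (log2), with libraries in columns and genes ordered from the shortest to the longest transcript. In EFNA3 replicate 1 the deviations run from 0.43 for Cldn7 to -0.58 for Tjp1, and control replicates 1 and 2 show the opposite signs for Cldn3, Cldn7, Cldn4 and Tjp1.

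Among junction genes, as in all tested genes, shorter transcripts tended to have the higher differences, but this did not hold for every gene. Cldn1, with a transcript of 4145 nt, differed by 0.06, where the median of its eighth of lengths was -0.02. Cldn3, Cldn7 and Cldn4 have transcripts of 1259, 1335 and 1816 nt, Epcam of 2040 nt, and Tjp1 of 7049 nt. The median difference of all tested genes was 0.12 in the eighth of lengths that holds Cldn3 and Cldn7, 0.08 in the one that holds Cldn4, Epcam and Cldn8, and -0.18 in the one that holds Tjp1. Relative to the median of its own eighth, Cldn4 stood 0.13 higher, Cldn7 0.12, Epcam 0.09, Cldn3 0.08 and Cldn1 0.08, and Tjp1 stood at -0.14. With a spline in length and GC share taken out of every library, the differences were 0.14 (SE 0.06) for Cldn4, 0.14 (SE 0.09) for Cldn7, 0.13 (SE 0.06) for Epcam, 0.11 (SE 0.06) for Cldn1, 0.08 (SE 0.07) for Cldn3 and -0.15 (SE 0.08) for Tjp1. When EFNA3 replicate 1 was left out as well, Cldn4 stood at 0.09 (SE 0.05), Epcam at 0.08 (SE 0.04), Cldn7 at 0.05 (SE 0.07), Cldn3 at 0.02 (SE 0.05) and Tjp1 at -0.05 (SE 0.04). Over the 10 junction genes the median difference was 0.0907 as fitted and 0.0909 with the length and GC correction in all 6 libraries. Over all tested genes these medians were 0.0038 and 0.0165.

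**Figure D4:**
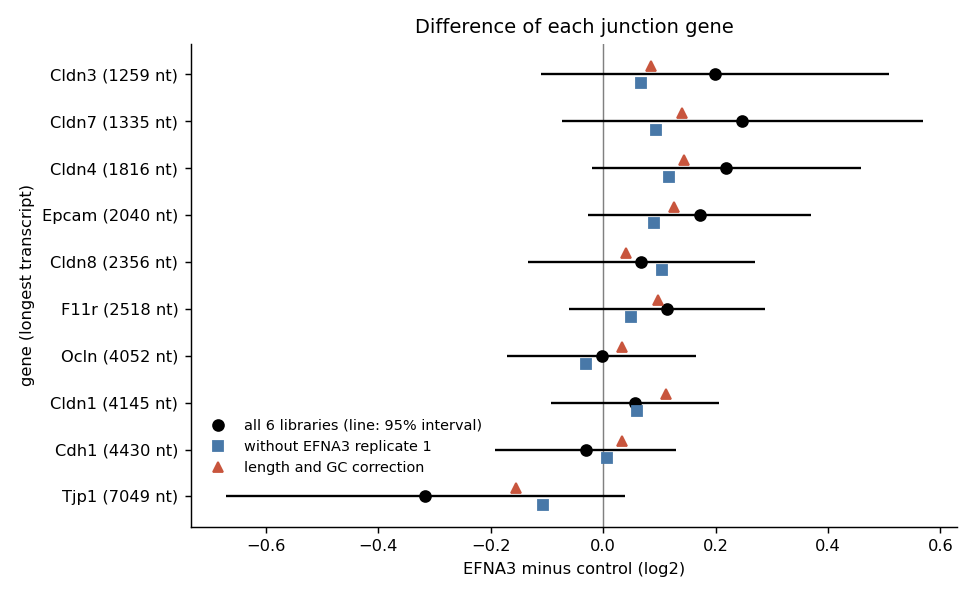
Log2 difference of each junction gene, EFNA3 minus control, from the shortest transcript (top) to the longest. Circles with lines are the fit to all 6 libraries with 95% intervals, all of which include 0, squares the fit without EFNA3 replicate 1, and triangles the fit with the length and GC correction.

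The same pattern held across a wider set of contact genes: the 10 junction genes, other claudins, other tight and adherens junction proteins and desmosome proteins, 78 tested genes in all. Of 22 with transcripts up to the median length of 3012 nt, 20 were higher with EFNA3, with a median difference of 0.12, beside 68.5% higher and a median of 0.09 over all 8092 tested genes of such length. Of 56 longer ones, 42 were lower, with a median of -0.08, beside a median of -0.06 over all longer genes, of which 32.9% were higher. Without EFNA3 replicate 1 the medians of the contact genes were 0.06 and -0.02, and with the length and GC correction 0.07 and -0.0002. None of these genes passed the limma test.

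**Figure D5:**
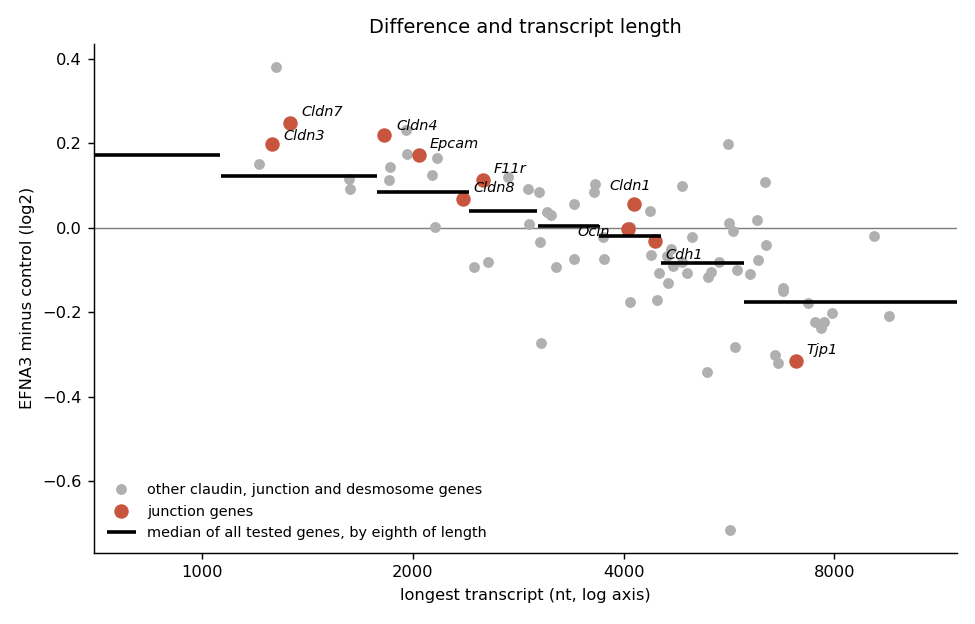
Log2 difference, EFNA3 minus control, against the length of the longest transcript (log axis) for the 10 junction genes (red, named) and the other claudin, junction and desmosome genes (grey). Black bars are the medians of all tested genes in eighths of length, from 0.17 in the shortest to -0.18 in the longest.

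Other claudins were few in these cells. Of 6 tested, 4 had higher and 2 lower means with EFNA3, with a median of 0.06, and 0 passed the test. Without EFNA3 replicate 1 the median was -0.02. Cldn2, a claudin that forms pores for cations, stood at 8.23, 8.22 and 8.03 in controls and at 7.79, 7.94 and 7.92 with EFNA3 (log2). The groups did not overlap and the difference was -0.27 (SE 0.11, adjusted p = 0.55). It was -0.23 without EFNA3 replicate 1 and -0.27 with the length and GC correction. Cldn12 differed by -0.07 (SE 0.07), also with no overlap, Cldn23 by 0.11 (SE 0.11) and Cldn6 by 0.11 (SE 0.15), the last 2 with overlap. The most abundant gene of this list was the claudin-domain gene Cldnd1, at 11.23 ± 0.03 in controls and 11.23 ± 0.04 with EFNA3 (SD, n = 3).

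Among 27 other tight junction proteins, 9 had higher and 18 lower means, the median was -0.08, and 0 passed the test in either direction. At an unadjusted p under 0.05 were 1 higher, the polarity gene Pard6a at 0.38 (SE 0.13), and 1 lower, the scaffold gene Magi3 at -0.32 (SE 0.14), 2 of 27 genes beside the 6.73% of all tested genes. Pard6a stood at 6.862, 6.930 and 6.998 in controls and at 7.385, 7.340 and 7.205 with EFNA3, with no overlap. Of the 27 genes, 3 were higher with no overlap between groups and 2, Magi1 and Magi3, were lower with no overlap. The shares over all tested genes were 8.53% and 7.45%. Tjp3, a scaffold relative of Tjp1, differed by 0.08 (SE 0.07), and by 0.05 without EFNA3 replicate 1. The scaffold genes Magi1 and Patj differed by -0.20 (SE 0.10) and -0.18 (SE 0.10), and by -0.08 and -0.07 without EFNA3 replicate 1. With the length and GC correction these were -0.02 and -0.01. The actin linker cingulin, Cgn, differed by -0.02 (SE 0.06), and the most abundant of the list, the virus receptor and adhesion gene Cxadr, by -0.01 (SE 0.08), and by 0.05 without EFNA3 replicate 1. Without EFNA3 replicate 1 Magi3 stood at -0.14 and Pard6a at 0.34, and the list median was -0.01.

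The partners of E-cadherin were split between the directions. Among 21 other adherens junction proteins, 10 had higher and 11 lower means, the median was -0.02 (0.03 without EFNA3 replicate 1), and 0 passed the test or stood at an unadjusted p under 0.05. Ctnnb1, beta-catenin, was the most abundant, at 15.81 ± 0.09 in controls and 15.90 ± 0.00 with EFNA3 (SD, n = 3). Its 3 EFNA3 values and that of control replicate 3 were identical because the gene held the same rank in those libraries. The groups therefore overlapped. Ctnna1, alpha-catenin, differed by -0.02 (SE 0.07), Ctnnd1, p120-catenin, by 0.11 (SE 0.09), and plakoglobin, Jup, by -0.09 (SE 0.11). The actin-binding linkers Afdn and Vcl differed by -0.22 (SE 0.11) and -0.34 (SE 0.20), and by -0.10 and -0.07 without EFNA3 replicate 1. For Camsap3 and Shroom3, which act on microtubules and on actin at the junction, the differences were -0.17 (SE 0.10) and -0.15 (SE 0.10), and -0.07 and -0.04 without EFNA3 replicate 1. Omitting that library also gave 0.06 for Ctnnd1, 0.02 for Jup and 0.03 for Ctnna1. Camsap3 was the 1 gene of this list with no overlap between groups, beside 16% of all tested genes in either direction.

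Desmosomes, which anchor keratin filaments, gave 4 higher and 10 lower means among 14 tested genes, a median of -0.07 (0.02 without EFNA3 replicate 1), and 0 past the test. Perp, a small desmosome membrane protein, stood at 13.71, 13.76 and 13.82 in controls and at 14.11, 13.96 and 13.91 with EFNA3, with no overlap, a difference of 0.23 (SE 0.08, adjusted p = 0.55). It was 0.17 without EFNA3 replicate 1. Desmoplakin, Dsp, the most abundant, differed by -0.21 (SE 0.17) and by 0.02 without that library. Desmoglein 2, Dsg2, differed by -0.28 (SE 0.15), and the low gene Dsg1a by -0.71 (SE 0.57). With that library left out these were -0.08 and -0.13.

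Genes that act with Epcam lay mostly above their control means, with 7 of 8 higher, a median of 0.09 and 0 past the test. The inhibitors of matriptase, the protease that cleaves Epcam, differed by 0.21 (SE 0.11) for Spint2 and 0.08 (SE 0.07) for Spint1, and the metalloprotease gene Adam15 by 0.19 (SE 0.09). Omitting EFNA3 replicate 1 gave 0.08, 0.05 and 0.11 for these genes, in that order, and a list median of 0.05.

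Transcription and splicing factors that maintain epithelial genes gave 7 higher and 8 lower means among 15, a median of -0.002 and 0 past the test. Grhl2, an activator of Cdh1 and claudin genes, differed by -0.06 (SE 0.08), Ovol1 by 0.07 (SE 0.12), Ovol2 by 0.15 (SE 0.15), Klf5 by 0.07 (SE 0.08) and Elf3 by 0.14 (SE 0.12). With EFNA3 replicate 1 left out these were 0.003, 0.14, 0.02, 0.04 and 0.03. Klf4 had no overlap between groups and differed by 0.24 (SE 0.10, adjusted p = 0.55), and by 0.30 without EFNA3 replicate 1. The most abundant, Ehf, differed by -0.12 (SE 0.08), and the splicing factor gene Esrp2 by -0.12 (SE 0.07) with no overlap, or -0.07 and -0.08 without that library.

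Repressors of junction genes differed widely in level. Zeb1 and Zeb2, at 2.64 ± 0.35 and 2.91 ± 0.27 in controls, and Twist1, at 2.82 ± 0.58, did not pass the filter (log2, SD, n = 3). With EFNA3 they stood at 2.92 ± 0.72, 2.60 ± 0.56 and 3.13 ± 0.59 (SD, n = 3), and the groups overlapped for each. Snai2, which is also a basal mammary factor, was at 9.74 ± 0.13 in controls and 9.89 ± 0.10 with EFNA3 (SD, n = 3), and Snai1 at 6.69 ± 0.18 and 6.78 ± 0.22 (SD, n = 3). In all 7 genes of this list were tested, 4 with higher and 3 with lower means, a median of 0.09 and 0 past the test. The median was 0.02 without control replicate 1 and 0.06 without EFNA3 replicate 1. The mesenchymal genes Vim, Fn1 and Cdh2 differed by 0.23 (SE 0.14), -0.24 (SE 0.23) and 0.10 (SE 0.12), with Vim at 0.09 and Fn1 at 0.06 without EFNA3 replicate 1, and the most abundant, Sparc, by -0.02 (SE 0.07).

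The genes with profiles nearest to the mean profile of the 10 junction genes, by Euclidean distance between centred log2 values over 6 libraries, were Ube2z at 0.023, Spint1 at 0.027, Arf1 at 0.035, Kctd1 at 0.037 and Dazap2 at 0.038. The median distance over all tested genes was 0.40. These are descriptions of 6 libraries that share 1 normalization. Spint1 was also a member of the list of Epcam partners.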

How the data were processed

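RNA-seq values of 6 libraries were used. Per the submitters' processing notes, Trim Galore, Subread and featureCounts were used with the mouse build mm39; for versions, annotation, strand setting and the step from reads to log2 values, nothing was given in the sources used here. The authors deposited log2 values (base 2 inferred: 2 to the value sums to the size of a read library), whose sorted columns differ by at most 0.00302, as quantile normalization gives, so genes of equal rank share a value. Columns were matched to samples by their description labels.

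Genes with a value of at least 3.32 (10 on the linear scale) in 3 or more libraries were tested on those values by limma 3.58.1 (R 4.3.3), two-sided, with a mean-variance trend, no block and a threshold of 0.05 on Benjamini-Hochberg adjusted p-values. The fit was tested on simulated data. Transcript lengths and GC shares came from GENCODE M21 (an earlier build) for 98.7% of tested genes. The correction took splines with 5 degrees of freedom out of each library. Marker and pathway lists, and the members, were chosen with earlier results of these data known. The rule for named genes took all junction genes, and per pathway list the 4 smallest unadjusted p-values, the most abundant gene and a set of preset factors; the values of 2 genes under this rule are not reported here.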

Additional observations from a re-analysis of the deposited data

How the results depend on the processing

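The limma test over all genes called 0 junction genes in each of the 17 alternatives. It called 0 genes in all in 16 of them, and 53 higher and 18 lower with a replicate block by description number, a fit with 1 residual degree of freedom. Whether the numbers pair the samples is unknown, since the labels do not say that same-numbered libraries belong together. Across genes, deviations of same-numbered libraries from their group means correlated at -0.105, 0.03 and -0.318 by title. This check cannot decide the question, because the deviations within each group sum to 0 for every gene. With a replicate block by the titles, 0 genes were called. The count of junction genes at an unadjusted p under 0.05 was 0 in the fit as reported, 1 with library weights (Cldn4), 1 with the length and GC correction (Cldn4), 1 with the block by descriptions (Tjp1), and from 0 to 4 when a library was left out: 4 without EFNA3 replicate 3 (Cldn3, Cldn4, Cldn7 and Tjp1) and 1 without control replicate 3 (Cldn4). Of all 16394 tested genes, 1104 stood at that level in the fit as reported, 1267 with library weights and 922 with the block by descriptions. Without EFNA3 replicate 3 there were 2478 of 16394, and without control replicate 3 there were 740. With the length and GC correction there were 1230 of 16184. The mean difference over the junction genes ran from 0.04 to 0.11 over the alternatives.

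Signs changed in 10 of 170 recomputed differences, all near 0. Cldn8 was -0.0029 with the block by descriptions. Ocln was 0.033 with the length and GC correction, with or without the block by titles, and ran from -0.037 to 0.031 when a library was left out. Cdh1 was 0.0081 with library weights, 0.034 with the length and GC correction, with or without the block by titles, 0.031 with that correction and without EFNA3 replicate 1, and ran from -0.063 to 0.006 when a library was left out. The cause was not tested. Among the other lists, the median of other claudins was -0.002 with the length and GC correction and ran from -0.02 to 0.08 when a library was left out, and that of other tight junction proteins was 0.005 with the correction. Depth is unknown, so the precision of single values rests on the spread between 3 libraries per group.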
